A study of Drosophila melanogaster with 4 samples.

Results

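The cytochrome P450 family of Drosophila melanogaster was examined in larvae mutant for trx (trithorax), which encodes a histone methyltransferase that keeps genes active. Members were the genes whose current NCBI symbol starts with Cyp and a digit, together with the ecdysteroid-synthesis P450 genes dib, sad, shd, spo and phtm. The rule matched 92 genes of the NCBI gene table, of which 88 had a probe on the arrays. Of these 88, Cyp1 and Cyp40 are cyclophilins, which fold proteins and are no P450 enzymes, so they were set apart (log2 ratio -0.26 for Cyp1 and -0.02 for Cyp40, neither called). The remaining 86 P450 genes are among 12057 genes with a probe. A further 4 P450 genes of the table had no probe, namely Cyp6a16, Cyp9f3 and the pseudogenes Cyp6a15Psi and Cyp6t2Psi.

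Whole trx mutant larvae of genotype w1118; +; trxE3/trxB11, which carry a different trx allele on each copy of chromosome 3, were set against whole wild-type larvae of the isogenic line w1118; +; +. All larvae were wandering, in the third instar, raised on food with bromophenol blue and staged by the blue gut, and carried the w1118 allele. According to the methods, chromosomes X, Y and 2 of the mutant stocks came from the isogenic line. Chromosome 3, which carries the trx alleles, is not listed there, so for P450 genes on 3L and 3R the trx genotype and the origin of the chromosome cannot be told apart. There were 4 two-color arrays, which are 2 biological replicates (different RNA extractions of mutant larvae) with 2 arrays each. The mutant RNA was in Cy3 on arrays 1 (replicate 1) and 3 (replicate 2), and in Cy5 on arrays 2 (replicate 1) and 4 (replicate 2). Wild-type RNA was a common reference on every array, so the spread between wild-type larvae is part of no p-value. It is not stated whether the extractions came from separate cultures, so the p-values measure the spread between extractions, which may be technical. With 2 replicates an exact permutation test could not go below p = 0.5, and the p-values given come from a limma fit across all genes.

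P450 enzymes are haem proteins that insert oxygen into small molecules. In insects they fall into the CYP2, CYP3, CYP4 and mitochondrial clans. Enzymes of the CYP2 and mitochondrial clans make the steroid hormone ecdysone, which times molting, and many members of the CYP3 clan act on plant toxins and insecticides. Members of the CYP4 clan act on fatty acids and related chains, and one of them makes the hydrocarbons that waterproof the cuticle. Microsomal P450s receive electrons from the reductase Cpr and from cytochrome b5, and mitochondrial ones from a ferredoxin.

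All values below are log2 ratios of trx mutant over wild type, and values above 0 mean more transcript in the mutant larvae. They hold no level of either RNA, and their precision is limited by the number of arrays. On an array, between 11199 and 12775 spots had a value, and of the 87 P450 probes between 58 and 72 did. A gene was tested when both replicates gave a value, which held for 71 of the 86 P450 genes and for 10041 genes in all. A further 9 P450 genes had a value in one replicate only (Cyp4ac1, Cyp4ad1, Cyp4ae1, Cyp6a2, Cyp6a17, Cyp6t1, Cyp313a1, sad and shd). Other than sad and shd, these lay between -0.38 (Cyp4ac1) and 0.16 (Cyp6a2). No value was given for 6 others (Cyp4d8, Cyp6a8, Cyp6a19, Cyp6g1, dib and spo). The probe of trx itself gave 0.22 on array 2, 0.13 on array 3, 0.28 on array 4 and no value on array 1, and it was not called (log2 fold change 0.21, adjusted p = 0.0859). Whether that probe lies in a part altered by the alleles is not given in the sources used here, so it is no check of the labels.

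Of the P450 genes tested, 4 were called, in either direction a share near that of all genes, and they came from 3 clans. Calls required a change of 2-fold or more together with an adjusted p under 0.05. Cyp4ac3, Cyp6w1 and Cyp12e1 were higher in trx mutant larvae, which is 3 of the 71 tested (4.23%), beside 158 of all 10041 genes tested (1.57%). Cyp4g1 alone was lower, which is 1 of 71 (1.41%), beside 253 of all genes (2.52%). In either direction 4 of 71 were called (5.63%, beside 4.09%). No other P450 gene reached a 2-fold mean change, which 272 of all genes did upward (2.71%) and as many downward. On every array with a value, 2 P450 genes were at least 2-fold higher (2.82%, beside 1.32% of all genes) and 1 was at least 2-fold lower (1.41%, beside 1.75%).

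Cyp4ac3, a CYP4 member on 2L, was the highest of the family. It measured 2.01 and 2.09 on the arrays of replicate 1 and 1.92 and 1.71 on those of replicate 2. All 4 arrays were thus far above 0 and close together. The log2 fold change was 1.93 ± 0.08 (moderated SE, n = 2 replicates, adjusted p = 0.0193), which is 3.82-fold.

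Cyp6w1, a CYP3 member on 2R that has been linked to DDT resistance, measured 1.40 on array 1 and 1.15 on array 4, and had no value on the other 2 arrays. Each replicate therefore rests on a single spot, although both spots lay above 2-fold. The log2 fold change was 1.28 ± 0.09 (moderated SE, n = 2, adjusted p = 0.0256).

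Cyp12e1, a mitochondrial member on 3R, measured 1.15 and 1.32 in replicate 1 and 0.92 and 0.73 in replicate 2. Every array was above 0, and both arrays of replicate 1 lay above those of replicate 2. Its log2 fold change of 1.03 ± 0.13 (moderated SE, n = 2, adjusted p = 0.0447) was just past the threshold. Without array 2 it was 0.99 and without array 3 it was 0.98 (adjusted p = 0.0583), so that it was not called in either case.

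Cyp4g1, a CYP4 member on X, is the oenocyte enzyme that makes cuticular hydrocarbons from aldehydes, and it was the lowest of the family. It measured -1.03 and -1.67 in replicate 1 and -2.15 and -1.94 in replicate 2. All arrays were more than 2-fold below wild type, and the spread among them was wide. The log2 fold change was -1.70 ± 0.21 (moderated SE, n = 2, adjusted p = 0.0443), and without array 2 it was -1.54 with an adjusted p of 0.0634, so that it was not called.

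Cyp9c1, a CYP3 member on 2R, lay just outside the threshold. It measured 0.93 and 1.23 in replicate 1 and 0.78 and 0.98 in replicate 2, with a log2 fold change of 0.98 ± 0.08 (moderated SE, n = 2, adjusted p = 0.0277). It was called at 1.00 when each array was centered on its median, at 1.05 without array 1 and at 1.03 without array 3.

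**Figure D1:**
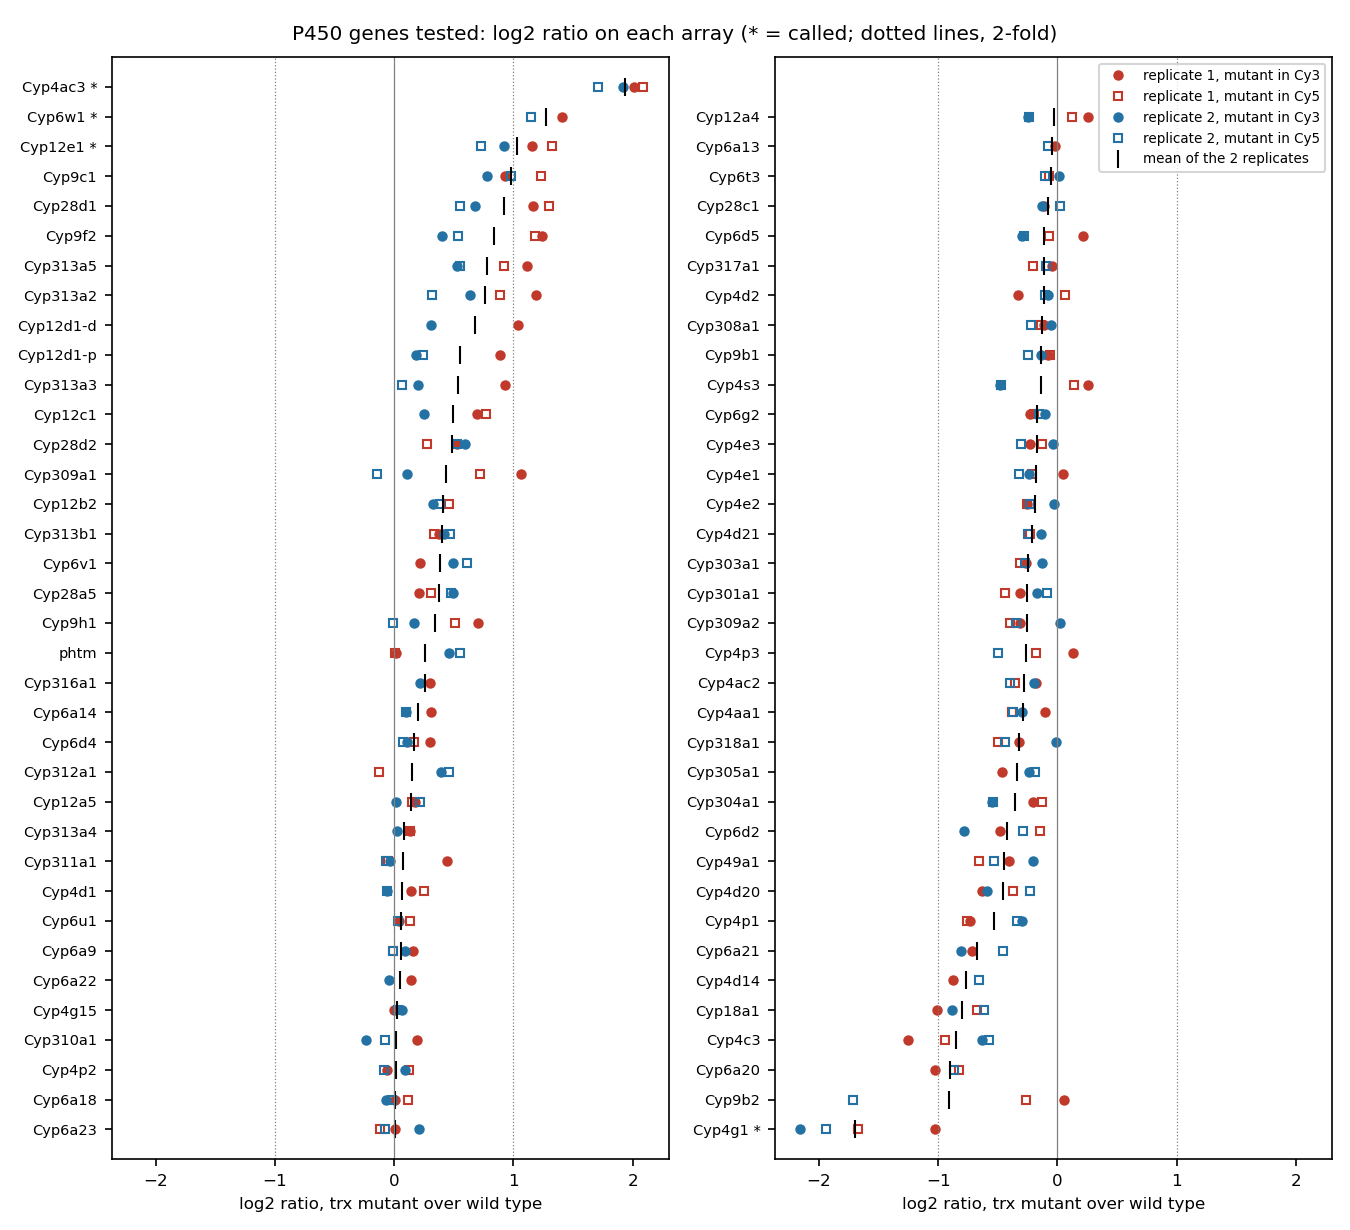
Each row is one of the 71 P450 genes tested, ordered by its mean, with the log2 ratio of trx mutant over wild type on each array (red, replicate 1; blue, replicate 2; circles, mutant in Cy3; squares, mutant in Cy5) and the mean of the 2 replicates as a black tick. Cyp4ac3 at 1.93 and Cyp4g1 at -1.70 stand at the ends, and in the genes below Cyp4ac3 the red points often lie to the right of the blue ones.

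With no minimum fold, 7 P450 genes were higher (9.86%, beside 6.49% of all genes) and 6 were lower (8.45%, beside 8.18%), together 13 of 71 (18.3%, beside 14.7%). At an unadjusted p under 0.05 there were 32 (45.1%, beside 38.2%). The higher ones were, besides Cyp4ac3, Cyp6w1, Cyp12e1 and Cyp9c1, the genes Cyp28d2 (0.48), Cyp12b2 (0.41) and Cyp313b1 (0.40). The lower ones were, besides Cyp4g1, the genes Cyp6a20 (-0.90), Cyp18a1 (-0.80), Cyp4d14 (-0.77), Cyp6a21 (-0.67) and Cyp4d20 (-0.46). Cyp6a20 has been linked to aggression in adult males, and Cyp28d2 is a close relative of Cyp28d1, which acts on nicotine.

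P450 genes lay on both sides of 0, with a center near that of all genes. The median log2 fold change was 0.006 over the 71 P450 genes and -0.02 over all genes, and 36 P450 genes (50.7%) were above 0, beside 45.9% of all genes. Single P450 genes lay further from 0, with a median absolute log2 fold change of 0.264 against 0.160 over all genes. They were also measured less completely, with 63.4% of those tested on all 4 arrays, beside 72.3% of all genes. The part of this in their spread and in their replicate differences was not tested. A change of at least 0.5 was seen in 19 of 71 (26.8%, beside 15.5% of all genes). Of these, 11 were higher (15.5%, beside 8.02%) and 8 were lower (11.3%, beside 7.47%). The sign was the same on every array with a value in 50 of 71 (70.4%, beside 62.5%). A mean change of less than 0.5 was measured in the other 52 of the 71 genes. The replicate means lay on opposite sides of 0 in 11 (15.5%, beside 19.0%).

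The 2 replicates also differed more in P450 genes. The median absolute difference between replicates was 0.201 in P450 genes and 0.0980 over all genes, and replicates differed by at least 0.5 in 12 of 71 (16.9%, beside 6.54% of all genes). In 11 of these 12 the ratio was higher in replicate 1 (15.5% of the 71, beside 3.43% of all genes tested). The exception was Cyp312a1, a CYP4 member on 3L, with -0.12 in replicate 1 and 0.43 in replicate 2. Of these 12 genes, Cyp12d1-d, Cyp12d1-p and Cyp313a3 had array 1 alone in replicate 1. Cyp312a1 had array 2 alone there, and Cyp9b2 had array 4 alone in replicate 2. The 2 arrays of a replicate were closer, with r = 0.945 in replicate 1 and 0.948 in replicate 2 over the 45 P450 genes measured on all 4 arrays. Between arrays of different replicates with the same dye, r was 0.815 and 0.888. Over all spots, r was 0.904 in replicate 1 and 0.881 in replicate 2. It was 0.824 between arrays 1 and 3 and 0.798 between arrays 2 and 4. That order of r is thus not particular to P450 genes. These are correlations across genes or spots, which are not independent replicates, and the arrays share the wild-type RNA.

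All 11 P450 genes higher by at least 0.5 had the larger ratio in replicate 1, which was so for 436 of the 805 such genes in the whole series (54.2%). Their median was 1.08 in replicate 1 and 0.54 in replicate 2, and every array of every one of them was above 0. Besides the 3 called genes and Cyp9c1, these were Cyp28d1, Cyp9f2, Cyp313a5, Cyp313a2, Cyp12d1-d, Cyp12d1-p and Cyp313a3, with adjusted p-values from 0.0715 to 0.224. In Cyp6w1, Cyp12d1-d, Cyp12d1-p and Cyp313a3, replicate 1 was array 1 alone. Cyp12d1-d and Cyp12d1-p are near-identical neighbors, and Cyp313a5, Cyp313a2 and Cyp313a3 also lie together, so the 11 genes are not separate evidence. Cyp28d1 measured 1.17 and 1.30 in replicate 1, and 0.68 and 0.55 in replicate 2. Cyp9f2, a CYP3 member, measured 1.24 and 1.18 in replicate 1, and 0.40 and 0.54 in replicate 2. In both genes replicate 1 alone was above 2-fold.

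Midgut markers showed the same order of replicates. These markers (digestive proteases, maltases, an amylase and Npc2f), set down as a list of 9 genes, had larger ratios in replicate 1 in 7 of the 7 genes tested. Their median was 1.69 in replicate 1 and 0.34 in replicate 2, and none was called. The share of all genes tested with the larger ratio in replicate 1 was not computed. The maltase gene Mal-A1 measured 3.65 and 4.28 in replicate 1, against 1.15 and 0.97 in replicate 2. The midgut and the fat body express many P450 genes. In whole larvae, a change in the number of cells of a type and a change in RNA per cell cannot be told apart. The part of the midgut difference in the P450 ratios was not tested. Malpighian tubule markers, which also come from an organ rich in P450s, had a median of 0.04 in replicate 1 and 0.20 in replicate 2 (6 tested, none called). Of 6 fat body markers tested, the storage protein gene Lsp2 was called higher (3.98), beside 1.57% of all genes, and none was called lower, with a list median of 0.30. The ratio was higher in replicate 1 in 4 of these 6, with medians of 0.31 in replicate 1 and 0.29 in replicate 2. The widest gap was in Fbp2, with 1.68 in replicate 1 and 0.48 in replicate 2. The lipoprotein gene apolpp was lower at -0.61 (adjusted p = 0.0443), short of 2-fold.

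**Figure D2:**
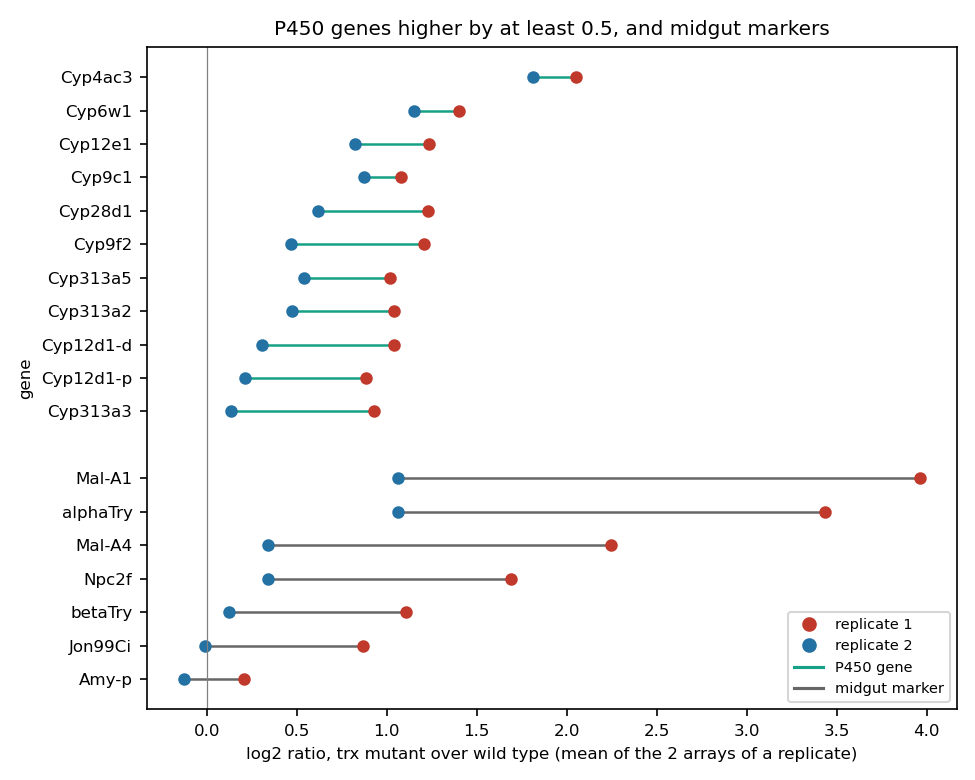
Log2 ratio of trx mutant over wild type in replicate 1 (red) and replicate 2 (blue), each the mean of its arrays with a value, for the 11 P450 genes with a log2 fold change of at least 0.5 and the 7 midgut markers tested. In all 18 rows the red point lies to the right of the blue one, and the gap runs from 0.20 in Cyp9c1 to 0.80 in Cyp313a3 among the P450 genes.

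Of the 8 P450 genes lower by at least 0.5, 6 had the lower ratio in replicate 1 (75.0%, beside 48.4% of the 750 such genes), and Cyp4g1 and Cyp9b2 had it in replicate 2. Cyp4c3, a CYP4 member on 3R, measured -1.25 and -0.94 in replicate 1 and -0.63 and -0.58 in replicate 2, with a log2 fold change of -0.85 ± 0.15 (moderated SE, n = 2, adjusted p = 0.0667). Cyp9b2, a CYP3 member on 2R, measured 0.06 and -0.26 in replicate 1 and -1.72 on array 4, which was the only array of replicate 2 with a value. Its mean of -0.91 ± 0.48 thus rests on one spot, and the adjusted p was 0.272. Its neighbor Cyp9b1 measured between -0.25 and -0.06 on the 4 arrays.

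**Figure D3:**
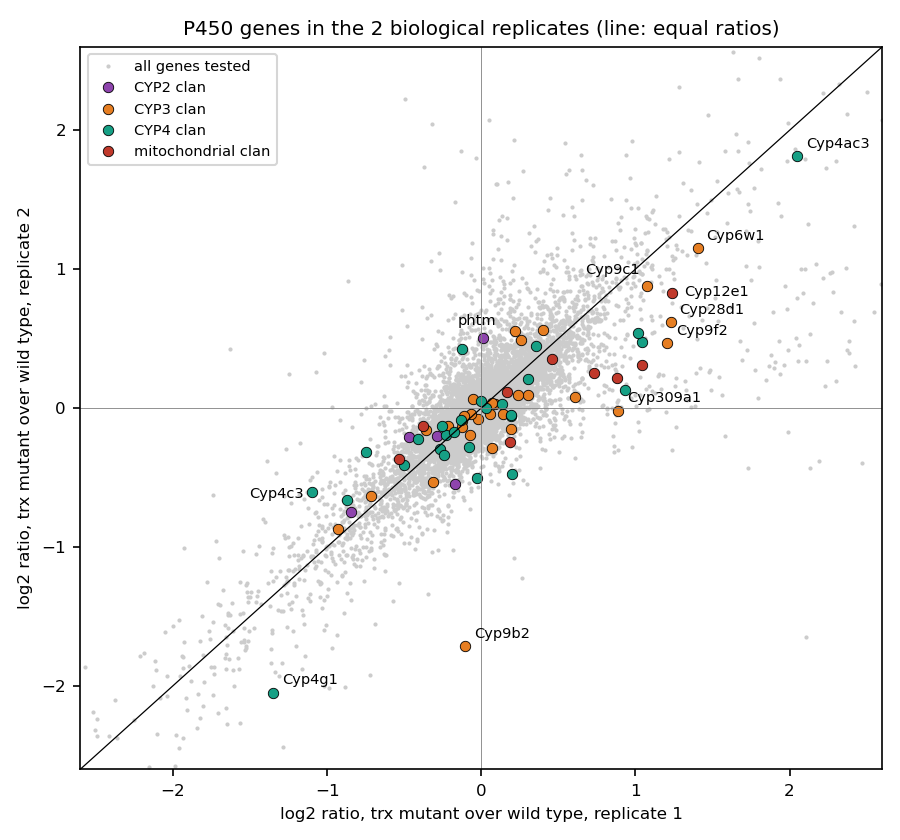
Log2 ratio of trx mutant over wild type in replicate 1 (horizontal) and replicate 2 (vertical) for the 71 P450 genes, colored by clan, over all genes tested in gray, with genes beyond the axis range not drawn. P450 genes with positive ratios lie mostly below the line of equal ratios, and Cyp9b2 stands alone with -0.10 in replicate 1 and -1.72 in replicate 2.

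By clan, the called genes were 1 of 30 tested in CYP3 (Cyp6w1), 2 of 27 in CYP4 (Cyp4ac3 and Cyp4g1), 1 of 9 in the mitochondrial clan (Cyp12e1) and none of 5 in CYP2. Over all genes tested 4.09% were called, so counts this small do not tell the clans apart. In CYP2, 1 gene, Cyp18a1, had an adjusted p under 0.05, beside 14.7% of all genes. Median log2 fold changes were -0.34 in CYP2, 0.01 in CYP3, -0.14 in CYP4 and 0.41 in the mitochondrial clan, beside -0.02 over all genes. Members of a clan share sequence and in part neighborhoods, so these are descriptions. The CYP4 clan had the widest range, from -1.70 to 1.93.

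The mitochondrial Cyp12 family lay mostly above 0, with 6 of 7 genes tested above 0 and a median of 0.49 (0.73 in replicate 1 and 0.25 in replicate 2). Cyp12d1-p and Cyp12d1-d, which respond to many toxins, are near-identical copies side by side on 2R, so their probes may share signal and the 2 genes are not separate evidence. Cyp12d1-p measured 0.88 on array 1, 0.18 on array 3 and 0.24 on array 4, and Cyp12d1-d measured 1.04 on array 1 and 0.31 on array 3. Cyp12a4, known for resistance to the insecticide lufenuron, was 0.19 in replicate 1 and -0.24 in replicate 2. The other mitochondrial members tested were below 0, namely Cyp49a1 (-0.45, adjusted p = 0.0548) and Cyp301a1 (-0.25, adjusted p = 0.157), a gene of adult cuticle formation.

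The Cyp313 family of the CYP4 clan was above 0 in all 5 genes tested, with a median of 0.53 (0.93 in replicate 1 and 0.44 in replicate 2). In the Cyp4 family, 4 of 18 tested were above 0, with a median of -0.20. In the Cyp28 family 3 of 4 were above 0 (median 0.43), in the Cyp9 family 3 of 5 (median 0.34) and in the Cyp6 family 9 of 16 (median 0.008). No gene of the Cyp313, Cyp28 or Cyp9 families was called, beside 4.09% of all genes tested. Cyp6g1, the gene of DDT resistance in field strains, had no value, and Cyp6a2, also linked to DDT, had 0.16 on array 3 alone.

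**Figure D4:**
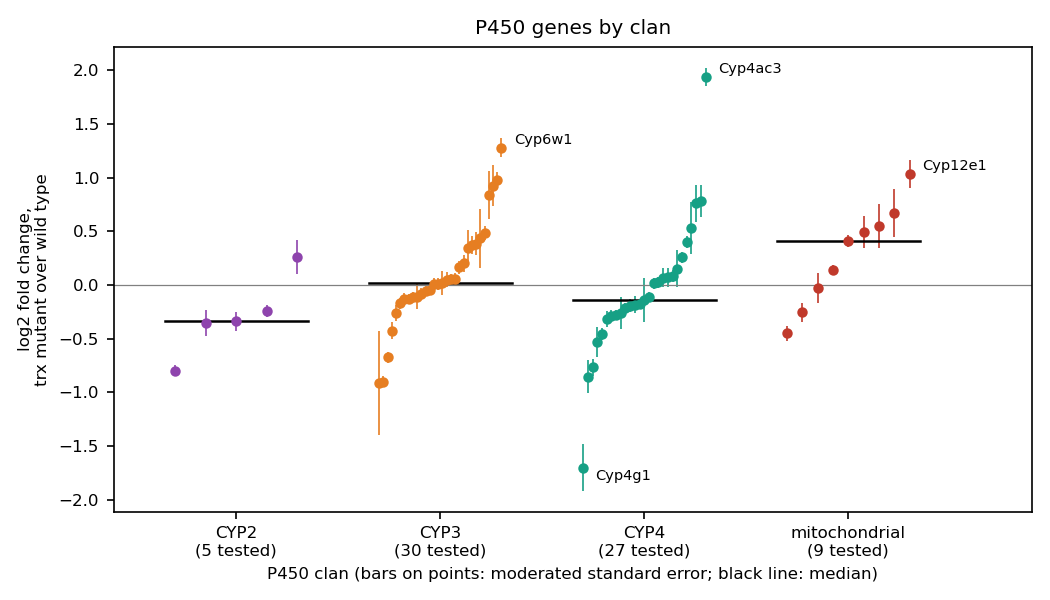
Log2 fold change of each P450 gene tested by clan, with moderated standard errors (n = 2 replicates) and the clan median as a black line. The 4 called genes are named, and medians run from -0.34 in CYP2 to 0.41 in the mitochondrial clan.

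P450 genes of ecdysone synthesis act in the prothoracic gland in sequence. The early steps use spo or its relative spok, depending on the stage, and Cyp6t3. The genes phtm, dib and sad encode the later hydroxylases. In other tissues shd converts ecdysone to 20-hydroxyecdysone, and Cyp18a1 inactivates the hormone. No value was given for spo or dib, and spok had no usable probe, so the step of spo and spok and that of dib were not measured. Cyp6t3 measured -0.07 on array 2, 0.02 on array 3 and -0.11 on array 4 (log2 fold change -0.06, adjusted p = 0.44), which lies within the spread of its arrays around 0.

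The gene phtm measured 0.01 and 0.01 in replicate 1 and 0.46 and 0.55 in replicate 2, with a log2 fold change of 0.26 ± 0.16 (moderated SE, n = 2, adjusted p = 0.316). For sad the values were 1.00 and 0.98 on the arrays of replicate 2, with none in replicate 1, and it was not tested. For shd they were 0.30 and 0.29 in replicate 2, again with none in replicate 1. All 3 genes were thus above 0 in replicate 2, and replicate 1 gave values near 0 for phtm and none for sad and shd.

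Cyp18a1 was the lowest of the ecdysteroid P450 genes. It measured -1.01 and -0.68 in replicate 1 and -0.89 and -0.61 in replicate 2. Every array was below 0, with the lower value in Cy3 in both replicates, and the log2 fold change was -0.80 ± 0.05 (moderated SE, n = 2, adjusted p = 0.025), short of 2-fold.

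In a list of 13 other genes of the pathway, 8 were tested, none was called, and the median was 0.15. Of these 8, 2 were higher at an adjusted p under 0.05 with no minimum fold, beside 6.49% of all genes, and none was lower. They were sro (0.65, adjusted p = 0.0355), a reductase gene of ecdysone synthesis, and Start1 (0.37, adjusted p = 0.0451), which encodes a lipid-transfer protein of steroid-making cells. The gland markers that are no P450 genes, sro among them, had a median of 0.03 over 4 tested, and none was called. The cholesterol-handling gene Npc1a measured 0.12 and the receptor gene tor measured -0.15, with adjusted p-values of 0.192 and 0.188.

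Electron donors of the P450s and their relatives were examined as a list. None of the 4 tested was called, and Cpr and dare, the reductases, had no probe that named 1 gene. The cytochrome b5 gene Cyt-b5 measured -0.57 and -0.68 in replicate 1 and -0.69 and -0.41 in replicate 2 (log2 fold change -0.59, adjusted p = 0.0305). Cyt-b5-r, which encodes a cytochrome b5-related protein and not the cytochrome b5 reductase, measured 0.65 and 0.85 in replicate 1 and 0.55 and 0.83 in replicate 2 (log2 fold change 0.72, adjusted p = 0.0261). Each of these 2 genes had one sign on all 4 arrays. The ferredoxin genes Fdx1 and Fdx2 measured -0.05 and -0.32, with adjusted p-values of 0.528 and 0.0706.

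Genes known to control the response of P450 genes to toxins and hormones (cnc, Keap1, maf-S, Hr96, ss, tgo and Met) were all tested and none reached an adjusted p of 0.05. Their log2 fold changes lay between -0.06 and 0.40, with a median of 0.06 and the highest value in maf-S, the partner of Cnc.

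Around Cyp4g1, the other genes of hydrocarbon synthesis were examined. None of the 5 tested was called (median -0.31). The elongase gene bond measured -1.61 and -1.22 in replicate 1 and -1.11 and -0.49 in replicate 2 (log2 fold change -1.11, adjusted p = 0.0633). FASN2, a fatty acid synthase of oenocytes, measured -0.42 and -0.41 in replicate 1 and -0.92 and -0.99 in replicate 2 (log2 fold change -0.68, adjusted p = 0.0979). FASN2 had the lower ratio in replicate 2, as Cyp4g1 had, and so had the oenocyte gene spidey (-0.16 in replicate 1 and -0.46 in replicate 2), whereas bond, Desat1 and FASN3 had it in replicate 1. That order was thus found in 2 of 5 genes of the list. The 2 of the 4 oenocyte markers tested that had it are the same genes, FASN2 and spidey. Over the 4 oenocyte markers tested the range was -0.68 to 0.07 with a median of -0.14, and none was called. The part of oenocyte number or RNA in the Cyp4g1 ratio was not tested.

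P450 genes often lie next to relatives. With at most 1 other gene between consecutive members, 48 of the 90 P450 genes of the table fell into 17 runs, and 38 of these 48 were tested. Of the 17 runs, 14 had at least 2 tested members, and the range of log2 fold changes within a run had a median of 0.416. A called member lay in 1 run only, that of Cyp4ac1, Cyp4ac2 and Cyp4ac3 on 2L.

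In that run the neighbors did not share a direction. Cyp4ac2 measured -0.18 and -0.35 in replicate 1 and -0.20 and -0.39 in replicate 2 (log2 fold change -0.28, adjusted p = 0.0627), and Cyp4ac1 had -0.38 on array 3 only. Cyp4ac2 was thus below 0 on all 4 arrays, next to Cyp4ac3 at 1.93. The nearest other genes tested were tkv (0.36) on one side, and Nin (0.03) and Bub1 (0.17) on the other, of which tkv had an adjusted p of 0.0462. Beyond Bub1, 5 places from Cyp4ac3, vri was called higher, with values of 0.91 or more on all 4 arrays (log2 fold change 1.06, adjusted p = 0.0193).

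The nearest tested neighbors of the other called genes all changed by less than 2-fold. Around Cyp12e1, Rrp46, CG6345, CG6465 and Phyhd1 lay between -0.22 and 0.07. Of these, CG6465 and Phyhd1 were 7 and 8 places away. Next to Cyp4g1, l(1)sc, ase, ebo and CG13373 lay between -0.11 and 0.09. On the side of Cyp6w1 with genes tested nearby, CG8343 measured -0.13 and Ptr measured -0.32. None of these 10 neighbors was called, beside 4.09% of all genes tested, so their lack of calls says little about these places.

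The longest run held 9 genes on 2R, Cyp6a22, Cyp6a17, Cyp6a23, Cyp6a19, Cyp6a9, Cyp6a20, Cyp6a21, Cyp6a8 and Cyp317a1, of which 6 were tested. Cyp6a20 measured -1.02 and -0.83 in replicate 1 and -0.87 on array 4 (adjusted p = 0.0214). Cyp6a21 beside it measured -0.71 on array 1, and -0.81 and -0.46 in replicate 2 (adjusted p = 0.0277). Both were below 0 on every array with a value, whereas the other 4 tested lay between -0.11 and 0.06.

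Some other runs were of one sign and some were not. Cyp313a5, Cyp313a2 and Cyp313a3 on 3R were at 0.78, 0.76 and 0.53, all higher in replicate 1. Cyp28d2 and Cyp28d1 on 2L were at 0.48 and 0.92. Opposite signs were seen in Cyp309a1 (0.44) and Cyp309a2 (-0.26), which lie side by side on 2L. On X, phtm (0.26) lay next to Cyp18a1 (-0.80), with Cyp308a1 (-0.13) beyond, so that a gene of hormone synthesis and the gene of hormone inactivation were neighbors with means of opposite sign.

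**Figure D5:**
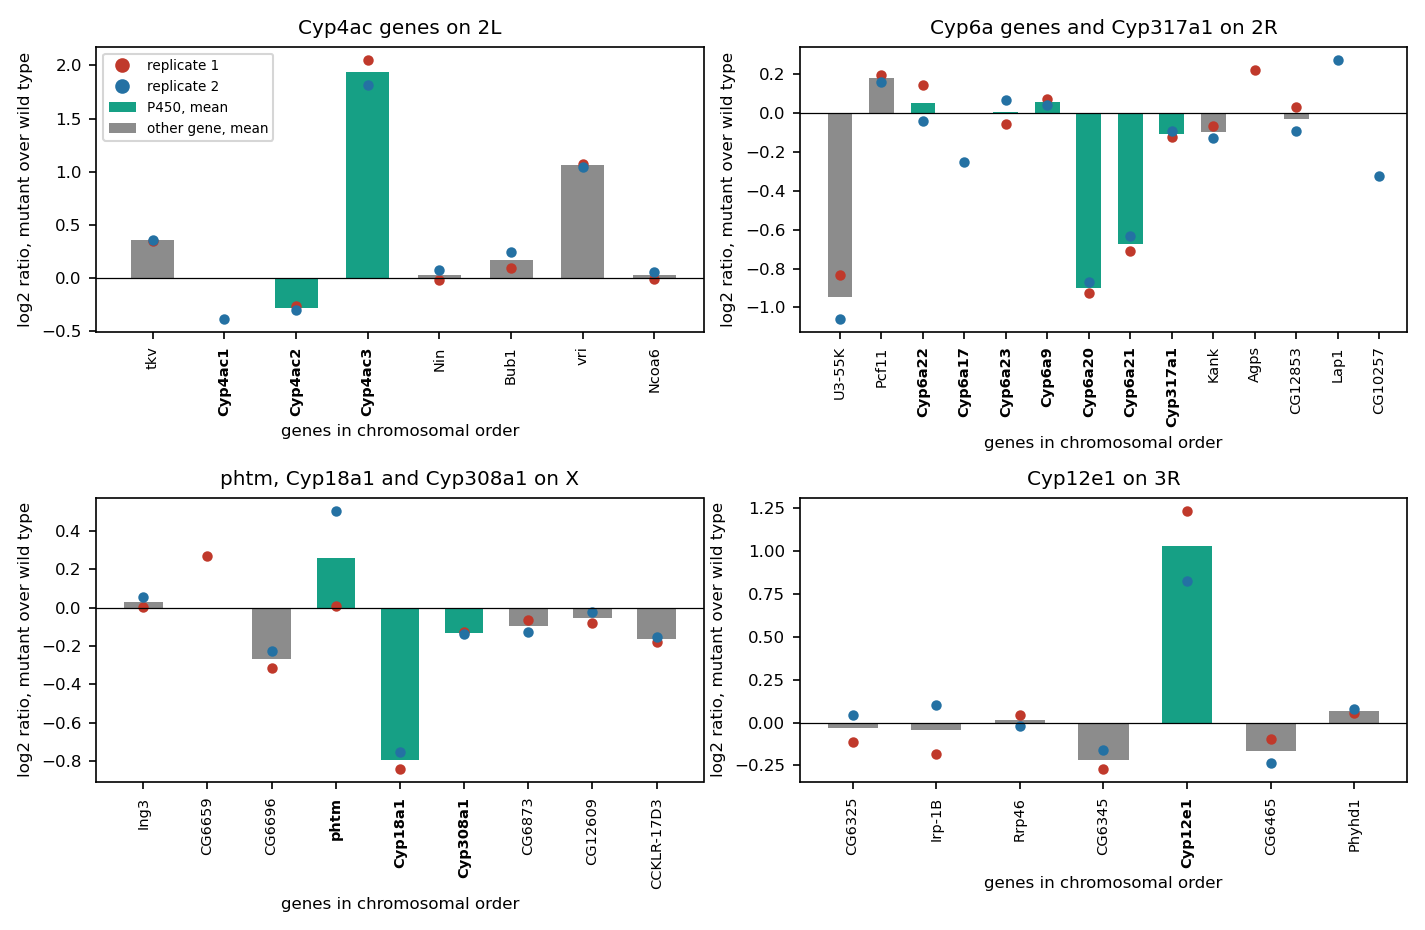
Log2 ratios of trx mutant over wild type in gene order around Cyp4ac3, Cyp6a20, Cyp18a1 and Cyp12e1, with bars for the mean of genes tested (green, P450; gray, other) and points for replicate 1 (red) and replicate 2 (blue). Genes with no value are left out, the horizontal spacing is the order and not the distance, and the vertical scale differs between panels. Cyp4ac3 at 1.93 lies next to Cyp4ac2 at -0.28, and Cyp6a20 (-0.90) and Cyp6a21 (-0.67) are the low pair of their run.

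By chromosome arm, called genes were 1 of 11 tested on 2L, 1 of 28 on 2R, 1 of 14 on 3R and 1 of 13 on X, and none of the 5 on 3L. Over all genes tested 4.09% were called, and that share was not computed by arm. With so few genes per arm, these counts are descriptions. Of the 4 called genes, Cyp12e1 is the one on chromosome 3.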

How the data were processed

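Scanned spots were quantified by the authors in GenePix Pro, and those below their quality limits were dropped. According to the methods, background was corrected by normexp in limma and normalization within arrays used OLIN. The methods also name a scaling between arrays by the median absolute deviation. In the values used here that deviation still ran from 0.173 on array 3 to 0.203 on array 1. The deposited values give, for each spot, the log2 ratio of trx mutant to wild type, already turned to one direction. The submitters' processing notes name limma, and its version is not given in the sources used here. The direction was checked on genes that the study lists as changed: 207 of 207 listed as higher with a value were above 0, and 1 of 235 listed as lower.

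Of 16416 probes, 13163 name 1 gene in the platform annotation. Probes were matched to the NCBI gene table (Release 6 plus ISO1 MT) by gene ID, accession or symbol, which gave 12057 genes, and all 87 P450 probes matched by gene ID. The table gave symbols, arms and gene order only. Probes of a gene were averaged on each array and dye-swapped arrays within each replicate. In limma 3.58.1 (R 4.3.3), an intercept was fitted to both replicate means of 10041 genes and tested with moderated variances (prior SD 0.083 on 1.80 degrees of freedom), and p was adjusted over all of them after Benjamini and Hochberg. The moderated standard errors of genes with nearly equal replicates rest mostly on the prior. The fit was tested on simulated data.

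The members and gene lists were chosen with earlier results of these data known. Genes named were the called members, the ecdysteroid P450s, the 5 highest and 5 lowest members, members of a run that holds a called one, called genes of the lists, and the 2 nearest tested genes on each side of a called member within 8 places. Members or listed genes named otherwise were chosen after their values were seen. A planned comparison of member proteins was not run, and no sequences are shown. Alternatives are given in the closing section.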

Additional observations from a re-analysis of the deposited data

Results flagged for a closer look

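Among the 45 P450 genes with a value on all 4 arrays, 2 had one array far from the other 3, with a gap to the nearest that was 0.885 of the range in Cyp4e2 and 0.945 in Cyp311a1 (Dixon's test). Chance gives such a value in about 1 of 20 genes. Cyp4e2, a CYP4 member on 2R, measured -0.025 on array 3, against -0.25 and -0.26 in replicate 1 and -0.23 on array 4. Cyp311a1, a CYP4 member on X, measured 0.45 on array 1, against -0.06 on array 2 and -0.04 and -0.06 in replicate 2. Neither gene was called.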

How the results depend on the processing

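In all, 16 alternatives were run. P450 genes called higher numbered 3, and 4 (with Cyp9c1) when the arrays were centered or centered and scaled. With no minimum fold they numbered 7, and with one array or one replicate left out 2 to 9, the 9 being genes at least 2-fold higher in replicate 1 alone, with no test (Cyp4ac3, Cyp6w1, Cyp12e1, Cyp9c1, Cyp28d1, Cyp9f2, Cyp313a5, Cyp313a2 and Cyp12d1-d). P450 genes called lower numbered 1, 6 with no minimum fold, and 0 to 2 with one array or replicate left out. The 0 arose without array 2, where 263 of all genes were called lower. With no test, replicate 1 alone added Cyp4c3 to the lower genes, and replicate 2 alone added Cyp9b2 there and left Cyp12e1 (0.83) short of 2-fold among the higher ones. The median over the P450 genes was 0.006, and -0.058 to 0.033 with one array or replicate left out (-0.058 without array 1, -0.056 without array 3 and -0.054 without replicate 1), -0.11 over genes with values on all 4 arrays, and -0.03 with the arrays as 4 independent samples, so that its sign is not settled. Taking the 4 arrays as independent samples, or with the replicate as a random block, called the same 4 P450 genes, with 240 genes higher and 269 lower over all genes, against 158 and 253. Cyp4ac3 was called under every alternative with a test. Cyp6w1 had no value in one replicate without array 1 or array 4, and could then not be tested. Of 160 values of single genes under the alternatives, none changed sign. Many of them could not change. No P450 probe named several genes and these genes had no further probe, so the settings for probes returned the main fold change. For genes with values on all 4 arrays, so did the fits to independent samples, with a random block and to complete genes. Among the 160 values with a test, 3 lost the call (Cyp12e1 without array 2 or array 3, Cyp4g1 without array 2) and 4 gained it (Cyp9c1). No paired analysis was possible because the ratios form 1 group. The signal behind a ratio is not part of the values used here, so dim spots could not be weighed.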
